A study of Mus musculus with 8 samples.

Results

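The genes described here encode subunits of the mitochondrial respiratory chain and of ATP synthase. The cells were mouse embryonic stem cells with a knockdown, grown with or apart from cells that the labels call mock. Members were the probe sets with a single gene symbol starting with Ndufa, Ndufb, Ndufc, Ndufs, Ndufv, Uqcr, Cox4, Cox5, Cox6, Cox7, Cox8 or Atp5, without Ndufaf symbols, together with Sdha, Sdhb, Sdhc, Sdhd, Cyc1, Cycs and any mitochondrially encoded subunit. This gave 175 of 45101 probe sets, for 85 of 18194 named genes. The lower limit on signal was passed by 83 of the 85 genes, and Cox8b and Ndufb4 were not tested. ND5 was the only mitochondrially encoded member, and the other 82 tested members are encoded in the nucleus.

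RNA was measured on 8 Affymetrix arrays, 2 in each of 4 groups. All cells were embryonic stem cells of the cross 129X1 x 129S1, and every sample combined 1 part of a knockdown line, with a short hairpin against Top1 (shTop1) or p53 (shp53), with 4 parts of mock cells. Knockdown and mock cells were grown together for 4 days in the cocultures. For the mixes each was grown alone for 4 days, and the RNA was combined afterwards. The series text gives the mixes as the reference that separates the effect of living together from the knockdowns' own effects.

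The electron transport chain passes electrons from NADH (complex I) and succinate (complex II) through complex III and cytochrome c to oxygen at complex IV, and the proton gradient this builds drives ATP synthase (complex V). Most subunits are made from nuclear genes and imported, whereas a small core, ND5 of complex I among them, is transcribed from mitochondrial DNA. Embryonic stem cells keep an active chain while also relying strongly on glycolysis.

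No gene, member or not, passed limma's test at an adjusted p of 0.05 in the 5 comparisons made, in which 614 to 1672 of 14267 genes had an unadjusted p under 0.05. The arrays had mean signals of 812 to 896, and shTop1 coculture replicate 1 stood apart from the others on the component that held 16.9% of the variance. Top1 had a signal of 5110 to 5316 on the 4 shTop1 arrays and 5456 to 5886 on the 4 shp53 arrays, and the hairpin was carried by only 1 part in the 1 to 4 combination. All 10 embryonic stem cell markers were above the limit on signal. The replicates are called biological in the labels, but separate thaws or passages are not stated, so the p-values reflect only how far these particular samples vary. In pooled RNA, fewer cells of a kind and less RNA per cell cannot be told apart.

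Promoters are shown for 6 nuclear members. After quantile normalization, Atp5md and Cycs were lower on every coculture array than on every mix array. Ndufb1, Cox7a2l, Ndufa8 and Ndufv2 were higher on every coculture array. The separation of Atp5md, Cycs and Ndufv2 did not hold under every scaling. The 6 genes were chosen after the values were seen. Each line holds the 250 bases before the gene's RefSeq start, 5′ to 3′ on the gene's own strand, in build GRCm38.p6. Capitals mark a match, on either strand, to the core motif of Nrf1 or of the Hif1 element (ACGTG). Letters for Gabpa (CCGGAAG) and Yy1 (AAGATGGCG) were searched too. Nrf1, Gabpa and Yy1 are known regulators of nuclear respiratory genes, and Hif1 of genes that answer low oxygen.
Atp5md, chr19:47090648-47090897, minus strand: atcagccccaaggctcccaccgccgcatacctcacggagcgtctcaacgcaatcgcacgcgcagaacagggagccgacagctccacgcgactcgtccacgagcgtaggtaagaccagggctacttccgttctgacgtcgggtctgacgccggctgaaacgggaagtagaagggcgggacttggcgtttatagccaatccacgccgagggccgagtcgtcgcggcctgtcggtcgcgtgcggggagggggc
Cycs, chr6:50566570-50566819, minus strand: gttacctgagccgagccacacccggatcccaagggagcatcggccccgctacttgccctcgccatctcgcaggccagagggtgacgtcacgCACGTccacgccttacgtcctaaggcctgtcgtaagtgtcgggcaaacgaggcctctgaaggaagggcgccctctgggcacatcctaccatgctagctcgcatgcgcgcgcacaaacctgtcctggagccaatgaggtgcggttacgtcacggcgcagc
Ndufb1, chr12:101975739-101975988, minus strand: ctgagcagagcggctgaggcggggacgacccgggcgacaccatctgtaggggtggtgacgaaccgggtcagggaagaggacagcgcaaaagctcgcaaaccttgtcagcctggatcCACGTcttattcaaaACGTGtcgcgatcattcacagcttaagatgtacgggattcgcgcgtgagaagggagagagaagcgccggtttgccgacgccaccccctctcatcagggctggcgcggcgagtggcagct
Cox7a2l, chr17:83514334-83514583, minus strand: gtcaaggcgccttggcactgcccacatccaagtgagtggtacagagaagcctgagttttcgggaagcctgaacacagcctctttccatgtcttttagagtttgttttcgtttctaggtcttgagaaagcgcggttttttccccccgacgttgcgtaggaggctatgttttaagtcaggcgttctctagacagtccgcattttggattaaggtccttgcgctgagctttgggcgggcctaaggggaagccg
Ndufa8, chr2:36049339-36049588, minus strand: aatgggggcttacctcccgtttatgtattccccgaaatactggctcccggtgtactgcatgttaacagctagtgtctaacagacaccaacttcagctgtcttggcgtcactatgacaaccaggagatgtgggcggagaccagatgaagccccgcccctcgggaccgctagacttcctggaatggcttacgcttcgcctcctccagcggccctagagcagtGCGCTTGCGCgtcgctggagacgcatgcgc
Ndufv2, chr17:66101560-66101809, minus strand: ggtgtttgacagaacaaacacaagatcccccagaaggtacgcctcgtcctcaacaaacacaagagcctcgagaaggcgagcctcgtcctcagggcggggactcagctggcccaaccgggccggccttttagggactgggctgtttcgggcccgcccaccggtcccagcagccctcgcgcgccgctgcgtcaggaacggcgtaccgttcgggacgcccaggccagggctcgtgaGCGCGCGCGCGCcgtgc

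The Cycs window held 1 Hif1 match, 159 bases before the start, and the Ndufb1 window held 2, at 134 and 119 bases. The Ndufa8 window held an Nrf1 match 30 bases before the start, and that of Ndufv2 held 2 overlapping ones at 17 and 15 bases. The windows of Atp5md and Cox7a2l held no match to the 4 motifs. The RefSeq table had 73 promoters for 68 of the 85 member genes. Of these, 14 (19.2%) held the Nrf1 letters against 4.98% of all 32851 promoters, 12 (16.4%) held the Gabpa letters against 6.91%, and 17 (23.3%) held the Hif1 letters against 16.6%. The Yy1 letters were in 1 (1.37%) against 0.606%. Matches are a description of these windows. Among members higher on every coculture array, 11 had a promoter, of which 2 held Nrf1, 0 held Gabpa and 3 held Hif1 letters. Among the other members that were tested, without the 3 that were lower, 53 had one, of which 10, 12 and 11 did.

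The first comparison set coculture against mix over both knockdowns, 4 arrays against 4. The single mitochondrial transcript, ND5, was lower in every coculture, while most nuclear subunits were slightly higher. Of the 83 members, 58 (69.9%) had a log2 change above 0, against 55.3% of the 14267 genes tested, and the members' median was 0.0643 against 0.0224. The changes were small: 70 of the 83 were under 0.2 in size, and the range was -0.57 to 0.47. Limma called 0 of 83 members at an adjusted p of 0.05, and 0 of all genes (0%), with adjusted p of 0.279 or more. At an unadjusted limma p under 0.05, 4 members (4.82%) were higher against 7.09% of all genes, and 3 (3.61%) were lower against 4.63%. The 4 were Ndufb1, Ndufv3, Cox6b2 and Cox7a2l, and the 3 were ND5, Cycs and Atp5md.

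Separation of the arrays gave another view. In 13 members (15.7%) every coculture array lay above every mix array, against 5.75% of all genes, and in 3 (3.61%) every coculture array lay below, against 3.35%. The 13 were Ndufa3, Ndufa6, Ndufa7, Ndufa8, Ndufb1, Ndufb3, Ndufb9, Ndufb11, Ndufv2, Ndufv3, Sdhc, Cox6b2 and Cox7a2l, and the 3 were ND5, Cycs and Atp5md. Members in these lists beyond those the naming rule gives were named after their values were seen. With the authors' own scaling, 13 members (15.7%) were higher without overlap, against 5% of all genes, and 11 of these were among the 13 above. Lower without overlap were 2 (2.41%), ND5 and Atp5md, against 3.48%. With median centring 16 members (19.3%) were higher without overlap, against 6.95% of all genes, and 9 of these were among the 13 above. Only ND5 (1.2%) was lower without overlap, against 1.44%. The share of members above 0 moved with the scaling: it was 88% with median centring, where 66.1% of all genes were above 0, and 79.5% with the authors' scaling alone, where 52.7% were.

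**Figure D1:**
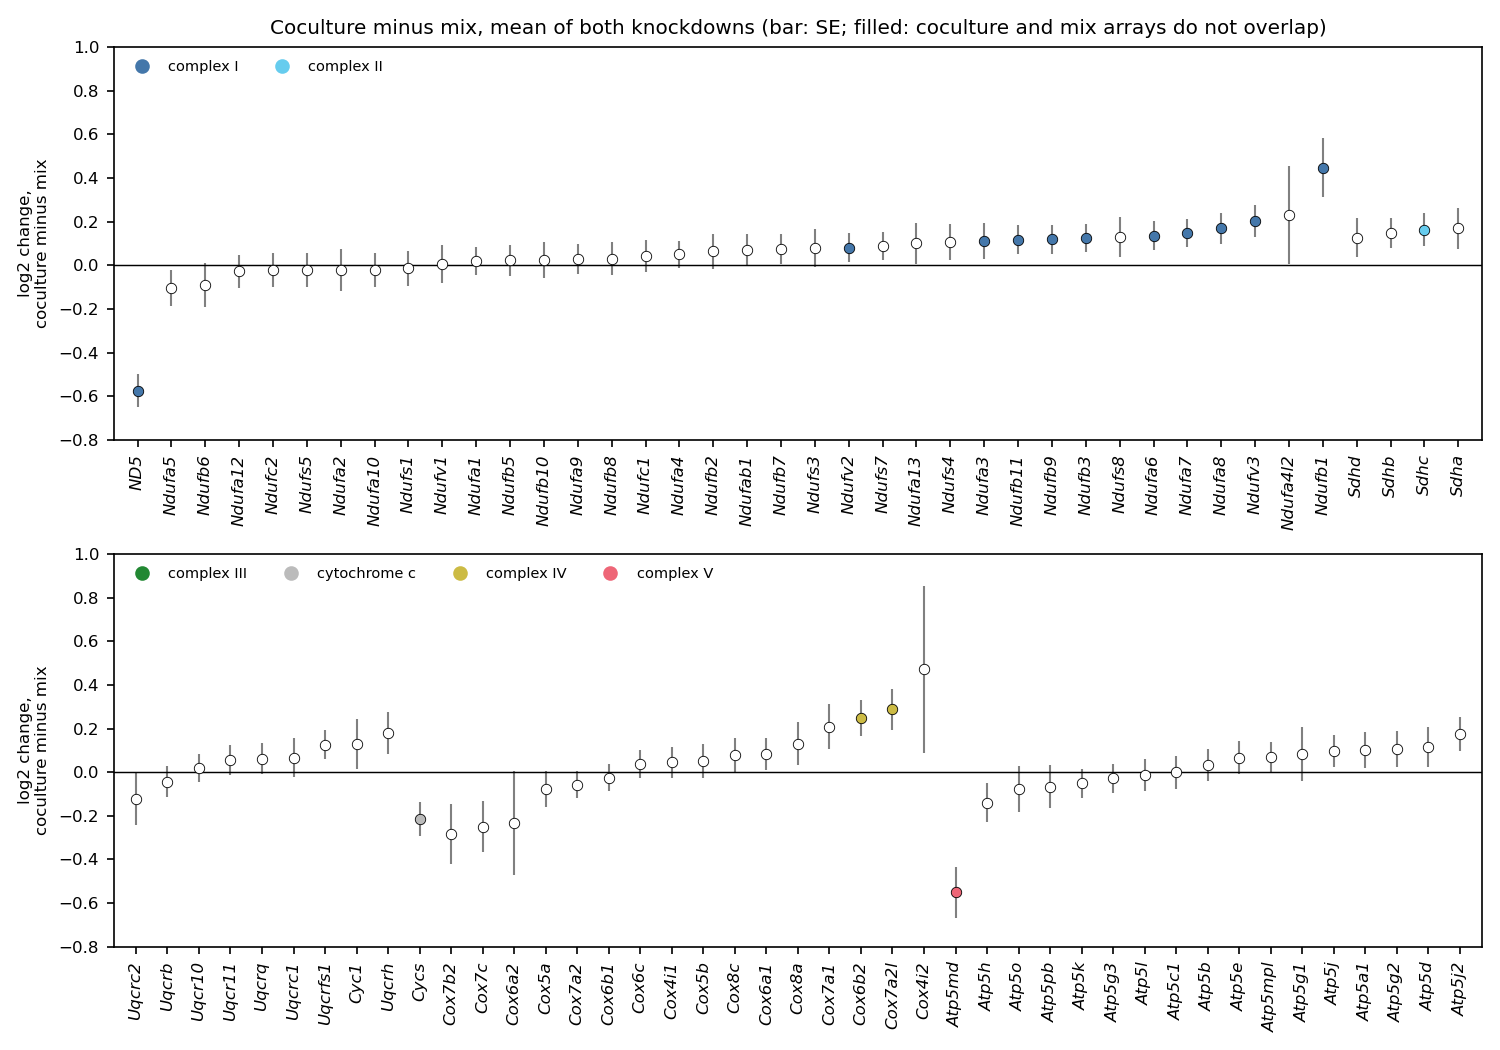
Log2 change (coculture minus mix, mean of both knockdowns, vertical axis) of the 83 tested members, ordered within each complex; bars are standard errors from limma over 8 arrays and filled points mark members whose 4 coculture and 4 mix arrays do not overlap. ND5 and Atp5md, at -0.57 and -0.55, lie apart from the other members, most of which lie slightly above 0.

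ND5, a proton-pumping core subunit of complex I, had signals of 8518 and 8084 in the shTop1 mix, 8779 and 7823 in the shp53 mix, 5384 and 5320 in the shTop1 coculture, and 5974 and 5596 in the shp53 coculture. All 4 coculture arrays lay below all 4 mix arrays, with a gap wider than the range within either set. The signal was 8301 ± 429 in the mixes and 5569 ± 295 in the cocultures (SD, n = 4 each). The log2 change was -0.57 ± 0.075 (SE), a ratio of 0.671, with a limma adjusted p of 0.279, and ND5 had rank 9 by p among the 14267 genes. The two-sided exact permutation p was 0.0286, the smallest that 4 arrays against 4 allow, and every member without overlap reaches it. Its 70 splits ignored which knockdown an array belonged to, and it was not adjusted for the 14267 genes. With trended and robust variances, limma's adjusted p for ND5 was 0.00267, and 31 genes, ND5 and Atp5md among them, passed. A single probe set measures ND5, so no other probe set checks it.

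Of the 36 complex I members, 27 (75%) were above 0, against 55.3% of all genes, and 9 below, with a median of 0.07. On every coculture array 10 were higher, where 5.75% of all genes were. Those below 0 were ND5 and 8 nuclear members, of which Ndufa5, an accessory subunit, was lowest at -0.10 ± 0.084. Ndufb1, an accessory subunit of the membrane arm, was dim: its signals were 109, 159, 142 and 187 in the mixes and 209, 208, 201 and 205 in the cocultures (in each such list, shTop1 replicates 1 and 2, then shp53 replicates 1 and 2). The cocultures were tightly grouped above a wide spread of mixes, and the log2 change was 0.45 ± 0.14 (limma adjusted p = 0.358). Ndufv3, an accessory subunit of the NADH-binding arm, had signals of 6971, 6728, 6714 and 6707 in the mixes and 7321, 8272, 7902 and 7747 in the cocultures. The mixes lay within a narrow band and every coculture was above it, by 0.20 ± 0.072 (adjusted p = 0.382).

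Smaller differences of the same kind were seen for other accessory subunits. Ndufa8 had signals of 3999, 3929, 3931 and 4134 in the mixes and 4318, 4745, 4334 and 4596 in the cocultures, a log2 change of 0.17 with a limma adjusted p of 0.436. Ndufa7 had signals of 10559, 10201, 10417 and 10274 in the mixes and 11494, 11814, 11538 and 11111 in the cocultures, a log2 change of 0.15 with a limma adjusted p of 0.444. Both genes had every coculture above every mix, and all 5 probe sets of Ndufa7 were above 0, from 0.06 to 0.20. The other complex I members above the mixes on every coculture array ran from 0.08 for Ndufv2, a subunit that carries an iron-sulfur cluster beside the NADH site, to 0.14 for Ndufa6. Other subunits did not separate: Ndufv1, which binds NADH, was at 0.01 ± 0.086, Ndufs5 by -0.02 ± 0.077 and Ndufa10 by -0.02 ± 0.079.

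Complex II, succinate dehydrogenase, also belongs to the citric acid cycle and has no mitochondrially encoded subunit. All 4 of its members were above 0, between 0.13 and 0.17, where 55.3% of all genes were above 0, and none passed the limma test. Sdha, the flavoprotein that oxidises succinate, had signals of 4424, 4429, 4291 and 4576 in the mixes and 4545, 5289, 4635 and 5518 in the cocultures, with 1 coculture array under the highest mix. Sdhb, the iron-sulfur subunit, had 5062, 5430, 5244 and 5018 in the mixes and 5883, 6097, 5650 and 5397 in the cocultures, again with 1 array within the mixes' range. Sdhc, a membrane anchor, had 4068, 4035, 3547 and 4022 in the mixes and 4598, 4402, 4424 and 4115 in the cocultures. Its arrays did not overlap, though they did with median centring, and the change was 0.16 ± 0.076 (limma adjusted p = 0.461). Sdhd, the other anchor, overlapped widely at 0.13 ± 0.090, and its second probe set was at -0.16.

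In complex III, 7 of 9 members (77.8%) were above 0, against 55.3% of all genes, with a median of 0.06, and all 9 overlapped. Uqcrh, the hinge protein, differed most by size, with signals of 7107, 6585, 6548 and 7210 in the mixes and 7378, 8534, 6975 and 8299 in the cocultures. One shp53 coculture array lay among the mixes, and the change was 0.18 ± 0.097 (limma adjusted p = 0.511), while a second Uqcrh probe set was at -0.05. Cyc1, the subunit that hands electrons to cytochrome c, had 0.13 ± 0.12. Uqcrfs1, the Rieske iron-sulfur protein, had 0.13 ± 0.066, and Uqcrc1, a core protein of the matrix side, 0.07 ± 0.088.

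Cycs, the somatic cytochrome c that carries electrons to complex IV and triggers caspases when released, was lower in the cocultures. Its signals were 16872, 16689, 16626 and 15797 in the mixes and 15452, 13600, 14652 and 13269 in the cocultures. No arrays overlapped, although the lowest mix and the highest coculture were close, and the change was -0.21 ± 0.079 (limma adjusted p = 0.397). The other probe sets of Cycs above the limit on signal were at -0.17 and -0.04.

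Complex IV, cytochrome c oxidase, had 10 members (62.5%) above 0, against 55.3% of all genes, and 6 below, with a median of 0.05. Several of its subunits exist as isoforms of different tissues, and the isoforms could be set side by side. Cox7a2l, a relative of the Cox7a subunits known for joining complexes III and IV into supercomplexes, had signals of 3849, 4391, 4752 and 4621 in the mixes and 4916, 5873, 5608 and 5119 in the cocultures. Its arrays did not overlap, the change was 0.29 ± 0.094 (limma adjusted p = 0.372), and its other probe sets were at 0.30 and 0.23. The heart and muscle form Cox7a1 was at 0.21 ± 0.10 and the widely expressed Cox7a2 at -0.06 ± 0.064, with a second Cox7a2 probe set at 0.04.

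Cox6b2, the testis form of its subunit, had signals of 1495, 1486, 1575 and 1475 in the mixes and 1654, 1941, 1865 and 1735 in the cocultures. The cocultures lay above the mixes without overlap, by 0.25 ± 0.082 (limma adjusted p = 0.374). The common form Cox6b1 was at -0.02 ± 0.063, and its second probe set was at 0.09. For the subunit at the regulatory site for ATP, Cox4i1 was at 0.04 ± 0.071, and the form known to answer low oxygen, Cox4i2, had only 63.5, 38.2, 18.5 and 63.2 in the mixes and 104, 34.6, 57.1 and 82.1 in the cocultures. The Cox4i2 change of 0.47 ± 0.38 had the widest error among the members. Cox6a1 was at 0.08 ± 0.073 and the muscle form Cox6a2 at -0.23 ± 0.24, while Cox8a was at 0.13 ± 0.099. Ndufa4, first assigned to complex I by name and now known as a complex IV subunit, was at 0.05 ± 0.063. Its relative Ndufa4l2, a known Hif1 target, was at 0.23 ± 0.22. Both were counted by symbol with complex I.

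ATP synthase had 10 members (58.8%) above 0, against 55.3% of all genes, and 7 below, with a median of 0.03. The exception in size was Atp5md, also known as Dapit, a small membrane subunit tied to dimer assembly. Its signals were 2099, 2454, 1572 and 2016 in the mixes and 1390, 1373, 1474 and 1242 in the cocultures. The cocultures lay below the mixes without overlap, but the lowest mix array came close to the highest coculture. With median centring they overlapped. The signal was 2035 ± 363 in the mixes and 1370 ± 95.8 in the cocultures (SD, n = 4 each), a log2 change of -0.55 ± 0.12 and a ratio of 0.683 (limma adjusted p = 0.333, and 0.043 with trended and robust variances). Atp5j2, a subunit of the membrane domain, was at 0.18 ± 0.080 with overlapping arrays, and its other probe sets were at -0.01 and 0.14. Atp5h, of the peripheral stalk, was at -0.14 ± 0.088, and its second probe set at 0.03.

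**Figure D2:**
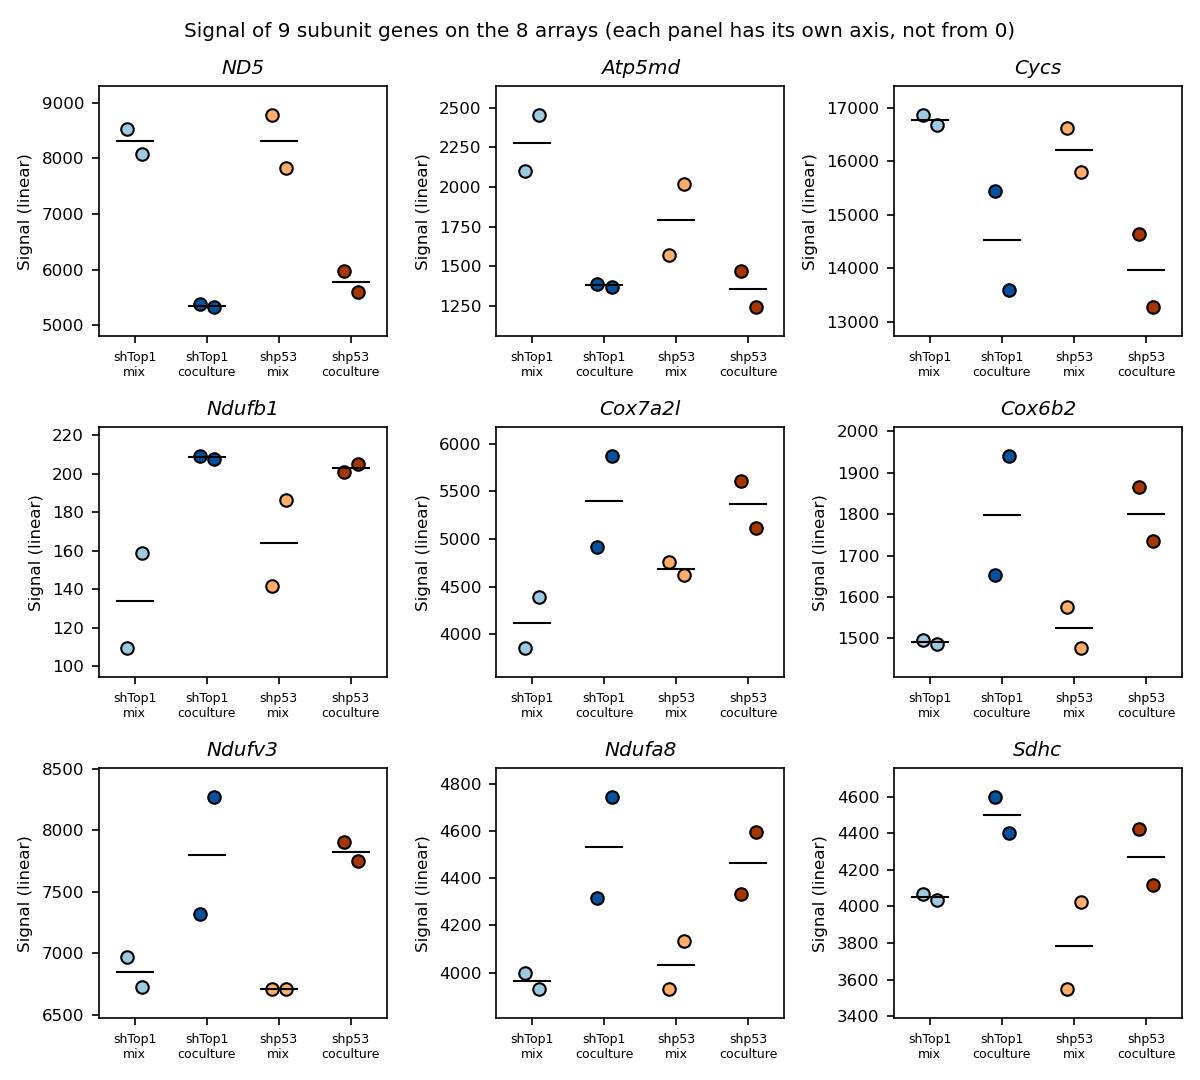
Signal (linear, after quantile normalization, each panel with its own vertical axis not starting at 0) of 9 members on the 8 arrays; points are single arrays and lines are group means of 2. ND5, Atp5md and Cycs lie lower and the other 6 genes higher on all 4 coculture arrays than on all 4 mix arrays.

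Probe sets of a gene often differed in sign. Of 48 members with several probe sets above the limit on signal, 26 had all of them on the same side of 0 (19 above and 7 below), and 22 did not. Over the 165 member probe sets above the limit, 112 were above 0, and none had a limma adjusted p under 0.05.

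The level of the whole set was followed on each array as the median, over the 83 members, of log2 signal minus the member's mean. It was -0.019, -0.028, -0.045 and -0.018 on the mix arrays and 0.027, 0.034, 0.011 and 0.013 on the coculture arrays. Every mix lay under 0 and every coculture above it. The same median over all 14267 genes also separated them, at -0.0090 to 0.0063 on the mixes and 0.0064 to 0.0352 on the cocultures. On the second coculture array of each knockdown, the members (0.034 and 0.013) were no higher than all genes (0.0352 and 0.0255). With the authors' scaling alone, the mixes were at -0.039, -0.056, -0.025 and -0.048 and the cocultures at 0.112, 0.018, -0.025 and 0.040. There 1 shp53 coculture array fell among the mixes. With median centring the mixes were at 0.002, -0.091, -0.174 and -0.046 and the cocultures at 0.155, 0.128, -0.004 and 0.006, so both shp53 cocultures lay near the first shTop1 mix.

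**Figure D3:**
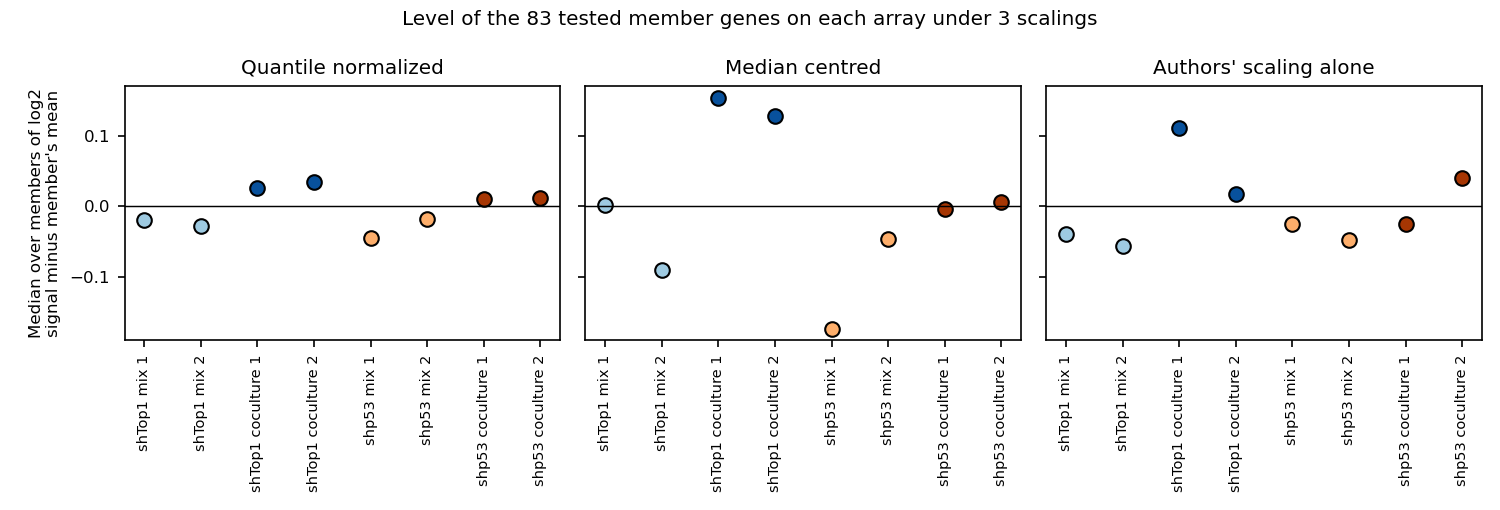
Median over the 83 members of log2 signal minus each member's mean (vertical axis) on each of the 8 arrays, under quantile normalization, median centring and the authors' scaling alone. Mix and coculture arrays span -0.045 to 0.034 and separate under quantile normalization, where the medians of all genes tested (not drawn) separate too, and they overlap under the other scalings.

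Each knockdown was then taken by itself, 2 arrays against 2. In shTop1, 57 members were above 0 and 26 below, where 55.6% of all genes were above 0. The members' median was 0.0613, against 0.0303 for all genes. Limma called 0 members, as of all genes (0%), with member adjusted p of 0.435 or more. Without overlap, 30 members were higher, against 24.5% of all genes, and 13 lower, against 16.9%. At an unadjusted limma p under 0.05, 3 members were higher and 3 lower, against 5.12% and 3.08% of all genes. They were Ndufb1, Cox7a2l and Cox8c, and ND5, Atp5md and Cox7c. ND5 had a log2 change of -0.63 and a ratio of 0.646 (limma adjusted p = 0.435, and 0.0174 with trended and robust variances), and Atp5md had -0.71 (limma adjusted p = 0.507). Ndufb1 was at 0.60 and Cox7a2l at 0.39 (limma adjusted p = 0.574 and 0.578). Cox7c, a small structural subunit of complex IV, was at -0.41 and Cox7b2, a testis form, at -0.44 (limma adjusted p = 0.606 and 0.616). The second Cox7c probe set was at -0.10.

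In shp53, 60 members were above 0 and 23 below, where 53% of all genes were above 0. The members' median was 0.0558, against 0.0145 for all genes. Limma called 0 members and 0 of all genes (0%), with member adjusted p of 0.552 or more. Without overlap, 26 were higher, against 20.9% of all genes, and 10 lower, against 17.1%. One member was higher and 1 lower at an unadjusted limma p under 0.05, against 3.87% and 2.99% of all genes. ND5 had -0.52 and a ratio of 0.698 (limma adjusted p = 0.552), and Atp5md had -0.39 (adjusted p = 0.734). Uqcrfs1 was the member with the smallest p among those higher, with signals of 3767 and 3803 in the mix and 4349 and 4557 in the coculture, a change of 0.23 (adjusted p = 0.718). In shTop1 its change was 0.02.

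The mixes and cocultures of one knockdown share no array with those of the other, though the labels do not say whether their mock cells were the same. The sign was shared by 66 of 83 members (79.5%), against 63.1% of all genes, 50 of them above 0 in both knockdowns and 16 below. Without overlap in each knockdown, 17 members (20.5%) were higher, against 8.81% of all genes, and 4 were lower, against 5.72%. Those higher added Ndufs7, Sdha, Sdhb and Atp5j2 to the 13 above, and those lower added Ndufa5 to the 3. The second Ndufa5 probe set was at 0.03 in shTop1, with overlapping arrays, and at -0.22 in shp53. The other Atp5j2 probe sets were at 0.03 and 0.46 in shTop1 and at -0.05 and -0.18 in shp53. Across the 83 members, Pearson's r between the changes was 0.65 and Spearman's rho 0.634, and r was 0.507 over 81 members without ND5 and Atp5md. These describe genes measured on the same arrays, which are not independent replicates.

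**Figure D4:**
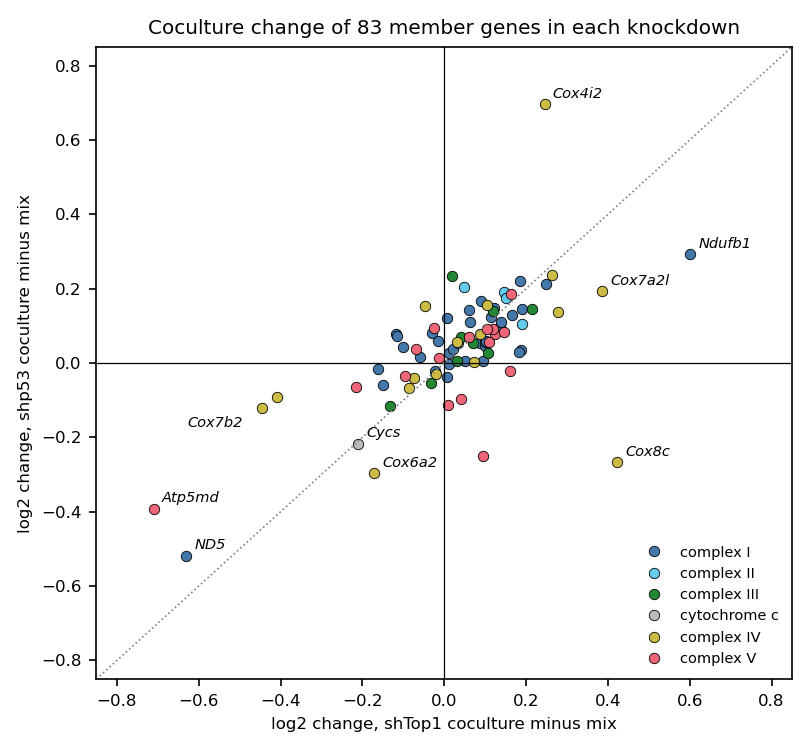
Log2 change, coculture minus mix, of the 83 members in shTop1 (horizontal axis) and shp53 (vertical axis), coloured by complex; the dotted line marks equal change. ND5, at -0.63 and -0.52, lies low on both axes, and Cox8c, at 0.42 and -0.27, lies on opposite sides of 0.

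The difference between both coculture effects, shTop1 minus shp53, was tested as an interaction. The members' median was -0.00913, 40 were above 0 and 43 below, and 51.5% of all genes were above 0. Limma called 0 members and 0 of all genes (0%), with member adjusted p of 0.983 or more, and the difference for ND5 was -0.11 ± 0.15. Cox8c, a testis form of a complex IV subunit, was the 1 member above 0 with an unadjusted limma p under 0.05, against 2.63% of all genes, and 0 members were below, against 1.68%. Its limma adjusted p was 0.983. Its signals were 178 and 199 in the shTop1 mix, 269 and 246 in the shTop1 coculture, 268 and 253 in the shp53 mix and 223 and 205 in the shp53 coculture. It was higher in coculture with shTop1 cells and lower with shp53 cells, with a difference of 0.69 ± 0.16. The second Cox8c probe set was higher in both knockdowns, at 0.70 in shTop1 and 0.91 in shp53, so its difference, -0.22, had the opposite sign. Cox8c, Cox5b and Atp5mpl (3 members, 3.61%) had coculture arrays wholly above the mix in one knockdown and wholly below in the other, against 3.55% of all genes. Atp5o, of the stalk of ATP synthase, had a difference of 0.34 ± 0.21.

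The knockdowns were last set against each other over mix and coculture. Limma called 0 members and 0 of all genes (0%), with a smallest member adjusted p of 0.999. The members' median was 0.00495, 46 were above 0 and 37 below, and 48.7% of all genes were above 0. At an unadjusted limma p under 0.05, 0 members were higher in shTop1, against 2.4% of all genes, and 1 was lower, against 2.29%. This was Atp5j2, with signals of 14609, 14476, 15863 and 16722 on the shTop1 arrays and 15489, 17962, 18321 and 19679 on the shp53 arrays, a difference of -0.21 ± 0.080. The arrays overlapped, and the other Atp5j2 probe sets were at 0.03 and 0.11. Uqcr10, a small complex III subunit, was the 1 member higher on every shTop1 array, against 1.02% of all genes, and 0 members were lower, against 1.07%. Uqcr10 had signals of 4307, 4326, 4427 and 4400 against 4123, 4212, 4135 and 4232, a difference of 0.06. Its other probe sets were at 0.02 and -0.07. Cox7b2 was at 0.22 ± 0.14, Ndufb2 at 0.18 ± 0.080 and Ndufv1 at 0.17 ± 0.086. The ND5 difference was -0.05 ± 0.075.

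Other genes of mitochondrial respiration were taken from lists, and limma called none in any of them. In the mean comparison of coculture and mix, 55.3% of all genes were above 0, with a median of 0.0224. There, 25 of 45 assembly factors of the complexes were above 0, with a median of 0.01. The smallest p belonged to Nubpl, an iron-sulfur carrier for complex I (0.29, limma adjusted p = 0.345). At an unadjusted limma p under 0.05, 1 assembly factor was higher, against 7.09% of all genes, and 3 were lower, against 4.63%. Of 17 genes of mitochondrial transcription and its regulators, 9 were above 0, with a median of 0.02, and Esrra, a nuclear receptor that drives respiratory genes, was at -0.25. In shTop1, Tfam, which packages and transcribes mitochondrial DNA, had the smallest p of that list, at -0.21 (limma adjusted p = 0.622). In shp53 the Tfam arrays overlapped, with signals of 2753.4 and 2582.8 in the mix and 2600.5 and 2633.9 in the coculture. Citric acid cycle genes had 10 of 12 above 0 and a median of 0.04, with Suclg2 at 0.18. Ubiquinone synthesis genes had 6 of 12 above 0 and a median of 0.01, with Coq8a at 0.31, and carriers and import genes had 11 of 17 and 0.02, with Tomm70a, an import receptor, at -0.18. Genes through which low oxygen controls respiration had 7 of 9 above 0 and a median of 0.12, with the smallest p for the mitophagy receptor Bnip3, at 0.25 (limma adjusted p = 0.353). The 2 below 0 were Hif1a and Pdk1. Ndufa4l2 and Cox4i2 belong to this list and to the members, and both count among the 7 although their arrays overlapped.

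Markers of other cell types were measured on the same arrays. Of all genes, 55.3% were above 0 in the coculture, with a median of 0.0224. Of 11 fibroblast markers named on the array, 5 passed the limit on signal, and all 5 were above 0 in the coculture, with a median of 0.37. The signal summed over all 11 was 606.5 to 650.5 on the mix arrays and 742 to 821.7 on the coculture arrays. Of the 5, 3 were higher at an unadjusted limma p under 0.05, against 7.09% of all genes. Col5a1 had the smallest p (limma adjusted p = 0.333), with signals of 156 to 205 in the mixes and 213 to 242 in the cocultures. Col1a1, the main fibroblast collagen, was near the floor at 5.3 to 40.2. All 10 primitive endoderm markers were above 0, with a median of 0.11 and a summed signal of 56240 to 60370 in the mixes and 61170 to 66460 in the cocultures. The 10 embryonic stem cell markers summed to 113400 to 121200, with 7 above 0, a median of 0.06, and Zfp42 at -0.28. None of these marker genes passed the limma test, and the part of such cells in the differences of ND5, Atp5md or the other members was not tested.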

How the data were processed

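Total RNA from cultured mouse embryonic stem cells was labelled with biotin and hybridised to Affymetrix arrays, per the labels' protocols. The deposited table holds a linear signal intensity for every probe set and array. Its mean without the top and bottom 2% was near 500.003 on each array, which shows a scaling by the authors, as read from the values. For the summarising tool, the sources used here give no name. Precision is limited by the 8 arrays.

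Probe sets with 1 symbol in the platform annotation were named (34958; 932 had several symbols and 9211 were not listed), and 10 with several symbols that included a member were left out. After quantile normalization, 16 was added before taking log2, which understates the fold of dim genes. Of the deposited values, before this normalization, 21.1% to 25.6% per array were under 16. For each gene the brightest probe set on average was kept, and genes were tested where it averaged a signal of at least 22.1 (the 30th percentile over the array), 14267 in all. Levels of different probe sets were not compared.

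Means of the 4 groups were fitted over 8 arrays with limma 3.58.1 (lmFit and eBayes, R 4.3.3; 4 residual degrees of freedom). Tests were two-sided, with Benjamini-Hochberg adjustment over all genes at 0.05. The fit was tested on simulated data. Of changes of 0.5 on the log2 scale, 28.4% were called in the mean comparison, 0% in shTop1 and 4.48% in shp53. Of changes of 2, 89.4% were called in the mean comparison. Changes as small as those of most members were not simulated, so the lack of calls cannot exclude them.

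Genes named were mitochondrially encoded members, complex II, Cyc1, Cycs, isoform sets, the 2 members of complexes I, III, IV and V with the smallest p in each comparison, and 1 gene per other list. Tfam, Hif1a, Pdk1 and Col1a1 were named beyond this rule. Members and lists were chosen with earlier results of these data known. Alternatives were a replicate block, other scalings, filters, pseudocounts and probe set rules, robust variances with a trend, fits on the compared groups only, and leaving out each array. Promoter sequences came from RefSeq (GRCm38.p6).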

Additional observations from a re-analysis of the deposited data

Results flagged for a closer look

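For 3 members the coculture arrays lay wholly above the mix arrays in one knockdown and wholly below them in the other. This was 3.61% of the 83 members, against 3.55% of all genes, so the count is at the background. Cox8c differed by 0.69 on the log2 scale (shTop1 minus shp53, limma adjusted p = 0.983), with signals as given above; its second probe set differed by -0.22. Cox5b, a zinc-binding subunit of complex IV, differed by -0.20, with signals of 17551 and 17962 (mix) and 16856 and 17508 (coculture) in shTop1, and 16020 and 17220 (mix) and 17259 and 19789 (coculture) in shp53. The 4 other Cox5b probe sets above the limit on signal differed the other way, by 0.0062 to 0.29. Atp5mpl, a small subunit of ATP synthase, differed by 0.18, with 4486 and 4085 against 4683 and 4894 in shTop1, and 4358 and 4375 against 4336 and 4271 in shp53. The limma interaction called none of the 3. Groups of 2 allow no test for outlying arrays.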

How the results depend on the processing

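With 2 arrays a group and low signals for Cox4i2 and Cox7b2, small changes are poorly resolved. Of 647 values of named results in settings that kept all arrays, 637 kept their direction and side of the threshold. Much of this was fixed in advance, since no main result passed the threshold. The replicate block, filters, robust variances with a trend, fits on the compared groups and unmerged probe sets also leave each named log2 change as it was. The members' median moved with the scaling. With median centring it was 0.150 (mean of both knockdowns), 0.208 (shTop1), 0.121 (shp53), 0.0692 (difference) and 0.0932 (shTop1 against shp53), where all genes had 0.0775, 0.0861, 0.0682, 0.0116 and 0.0626, and 1 member was lower without overlap; with the authors' scaling alone it was 0.0795, 0.134 (shTop1), 0.0627 (difference) and 0.0206 (shTop1 against shp53), where all genes had 0.0113, 0.0171, 0.00517 and -0.0135. With each gene's probe sets averaged it was 0.0446 (all genes 0.0121), 0.0136 (difference) and 0.0243 (shTop1 against shp53). With every probe set by itself, the median difference was 0.00799, 112 probe sets (67.9%, all probe sets 50.1%) were above 0 and 20 (12.1%, all 4.2%) were higher without overlap. Trended and robust variances called 31 genes in the mean comparison, 3 in shTop1 and 1 in shp53. Signs reversed for Cox6b1 (0.0618) and Cox7a2 (0.0773) with median centring, Cox7a2 (0.00701) with the authors' scaling, and Cox6b1 (0.0352), Sdhd (-0.0176), Cox8c in shp53 (0.323) and the Ndufa10 difference (0.549) with probe sets averaged. The causes were not tested.

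Leaving out 1 array at a time gave medians of 0.0387 to 0.0713 (mean), 0.0370 to 0.0622 (shTop1), 0.0383 to 0.0789 (shp53), -0.0216 to 0.0151 (difference) and 0.00249 to 0.0231 (shTop1 against shp53), 56 to 61 members above 0, 13 to 18 higher without overlap and 3 to 6 lower, and 0 genes called throughout. The lowest medians of the mean and shp53 came without shp53 mix replicate 1, that of shTop1 without shTop1 mix replicate 2, and the 6 lower members (7.23%, all genes 5.5%) without shp53 mix replicate 2. The 18 higher (21.7%, all genes 10.4%) came without shTop1 coculture replicate 1. ND5 ran from -0.62 to -0.53 and Atp5md from -0.64 to -0.46, but Cox4i2 from 0.16 to 0.78. Uqcrc1 ran from -0.0175 (without shTop1 coculture replicate 2) to 0.231 in shTop1, and its difference from -0.0450 to 0.204. Cox6a2 ran from -0.492 to 0.0245, the latter without shp53 coculture replicate 2.

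Same-numbered replicates did not deviate together (r of -0.00666 to 0.0506), which cannot tell whether the samples were prepared in pairs. With the replicate block 0 genes were called and no call changed. The members' median stayed at 0.0643, which the balanced design fixes in advance.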
